A study of Mus musculus with 2 samples.

Results

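Rab GTPases, sorting nexins and Vps proteins were taken as the genes whose symbol begins with Rab, Snx or Vps followed by a digit, among probe sets that the array's annotation assigns to exactly 1 gene symbol. This gave 105 genes on 185 probe sets (56 Rab, 21 Snx and 28 Vps genes) out of 12393 genes measured. The samples were 2 RNA preparations of splenic CD4+ T cells, isolated with magnetic beads, 1 from DBA/1 mice, which are susceptible to arthritis, and 1 from C57BL/6 mice, which resist it. Both strains had been immunised with GPI (glucose-6-phosphate isomerase), and cells were taken on day 7. Each RNA was hybridised to 1 array. The sources used here do not give the animals' age or sex or how many were pooled per RNA.

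Rab proteins are small GTPases that sit on a membrane in their GTP-bound state and recruit the tethers, motors and coats of 1 transport step. Sorting nexins bind phosphoinositides through their PX domain, and those with a BAR domain bend endosomal membrane into tubules. Vps proteins, named after yeast mutants in vacuolar protein sorting, form the complexes of the endosome and lysosome: retromer returns cargo from endosomes, HOPS and CORVET tether membranes, GARP captures carriers at the Golgi, and ESCRT sorts ubiquitinated receptors into internal vesicles. In T cells these routes carry the T cell receptor, integrins and cytotoxic granules.

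Values are MAS5 signals, a linear intensity per probe set, given here as DBA/1 first and C57BL/6 second. Differences are log2 ratios of DBA/1 over C57BL/6. A floor was set at the median of each array (37.6 in the DBA/1 array, 38.0 in the C57BL/6 array), and a lower signal was raised to it. A gene with 1 side under the floor has only a bound, written "at least N-fold". A gene was counted at a fold threshold only if a signal reached the 75th percentile of its array (171 or 162), called the minimum signal below. With 1 array per strain there was no test and no replicate error, and the number of arrays limits the precision of every value. A second probe set for the same gene was the only repeat: over 2325 genes its ratio differed from the first with an SD of 0.43, or 0.31 per probe set. Signals of different genes come from different probes and do not rank their RNA.

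Most of the trafficking genes had close to the same signal in both strains. Of the 105 genes, 82 were above the floor on at least 1 array (38 Rab, 18 Snx and 26 Vps), 75 of them on both arrays, and 50 reached the minimum signal. The median log2 ratio was 0.17 over the 82 genes, against 0.10 over all 6936 genes above the floor. Of the 82, 55 were higher in DBA/1 and 27 lower, or 67.1% higher against 60.6% of all genes. After the arrays were centred on their median ratio, which moved all genes down by about the all-gene median of 0.10, these shares were 56.1% and 49.7%. All 105 gene symbols were identical to the RefSeq symbol of the same Entrez gene.

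Only Rab28 and Vps37b combined the minimum signal with a difference of at least 2-fold. Of the 50 trafficking genes at the minimum signal, 1 was at least 2-fold higher in DBA/1, against 3.98% of all 3920 such genes, and 1 was at least 2-fold lower, against 1.99%. At 1.5-fold, a threshold added after the values were seen, 3 were higher in the probe set used (Rab28, Snx5 and Snx10; 12.3% of all genes) and 2 lower (Rab3ip and Vps37b; 4.97% of all genes). Snx5 is counted there by 1 of 5 probe sets that disagree in direction, as described below for that gene. Without the minimum signal, 2 of the 82 genes were at least 2-fold higher (Rab28 and Rab31; 3.84% of all 6936 genes) and 3 at least 2-fold lower (Rab6b, Vps37b and Vps37c; 1.9%). The log2 ratios of the 75 genes above the floor on both arrays had an SD of 0.40, against 0.48 over all such genes. The scatter of both arrays' signals shows most of the trafficking genes along the line of equality.

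**Figure D1:**
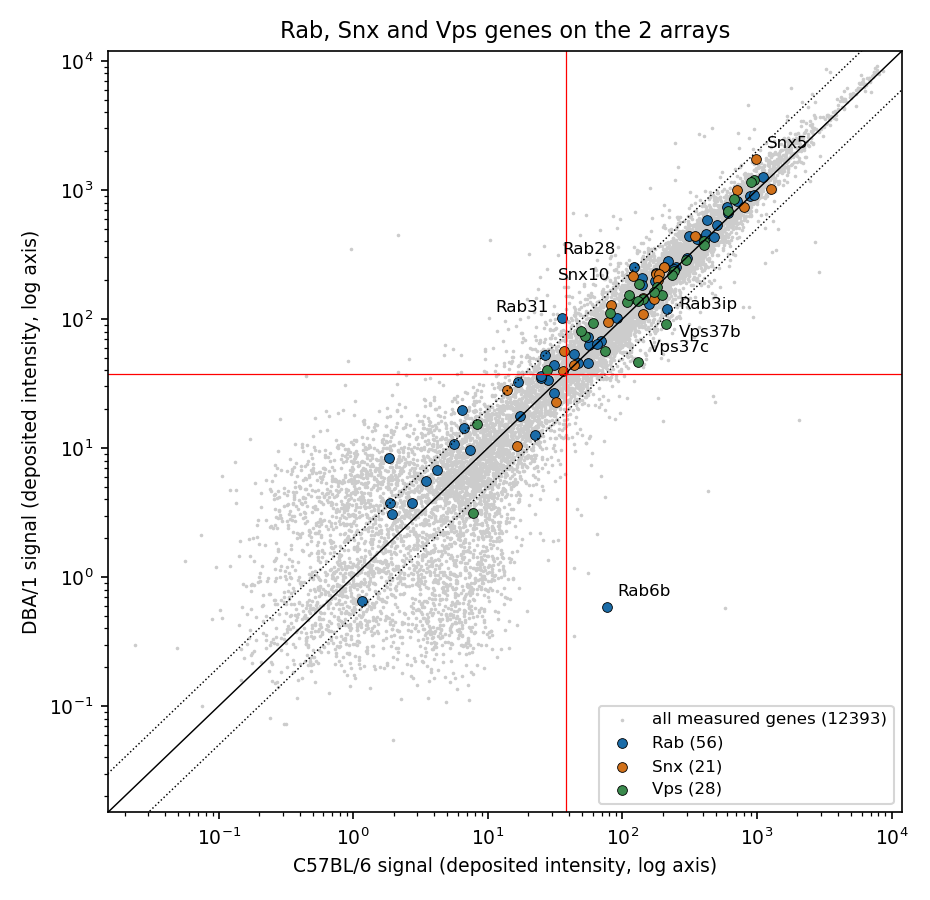
Signal of each gene in C57BL/6 (x axis) and DBA/1 (y axis), both as deposited intensity on log axes. Grey points are all 12393 genes, coloured points the 56 Rab, 21 Snx and 28 Vps genes; the solid line marks equality, dotted lines 2-fold, and red lines the floors of 37.6 and 38.0. Most coloured points above both floors lie between the dotted lines, while Rab28, Rab31, Vps37b, Vps37c and Rab6b lie on or outside them.

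The median log2 ratios of the name groups lay close together. The median was 0.17 for Rab (27 of 38 higher in DBA/1), 0.27 for Snx (14 of 18) and 0.069 for Vps (14 of 26). Of all genes, 60.6% were higher in DBA/1. Counted over the all-gene median instead of 0, the numbers were 23 of 38 Rab, 11 of 18 Snx and 12 of 26 Vps genes. Against the all-gene median, these are 0.066 above for Rab, 0.17 above for Snx and, for Vps, a difference of -0.032. With median centring the Vps median came to -0.034 and with lowess to -0.0078, so its sign depended on the scaling, while those of Rab and Snx stayed above 0 under median centring, quantile normalization and lowess. The Snx median was the highest and the Vps median the lowest as deposited and under these 3 scalings, but without probe sets ending in _s, _x or _a the order was Vps (0.33), Snx (0.27) and Rab (0.14). The differences between groups were not tested. The dot plot of all ratios shows the overlap of the groups.

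**Figure D2:**
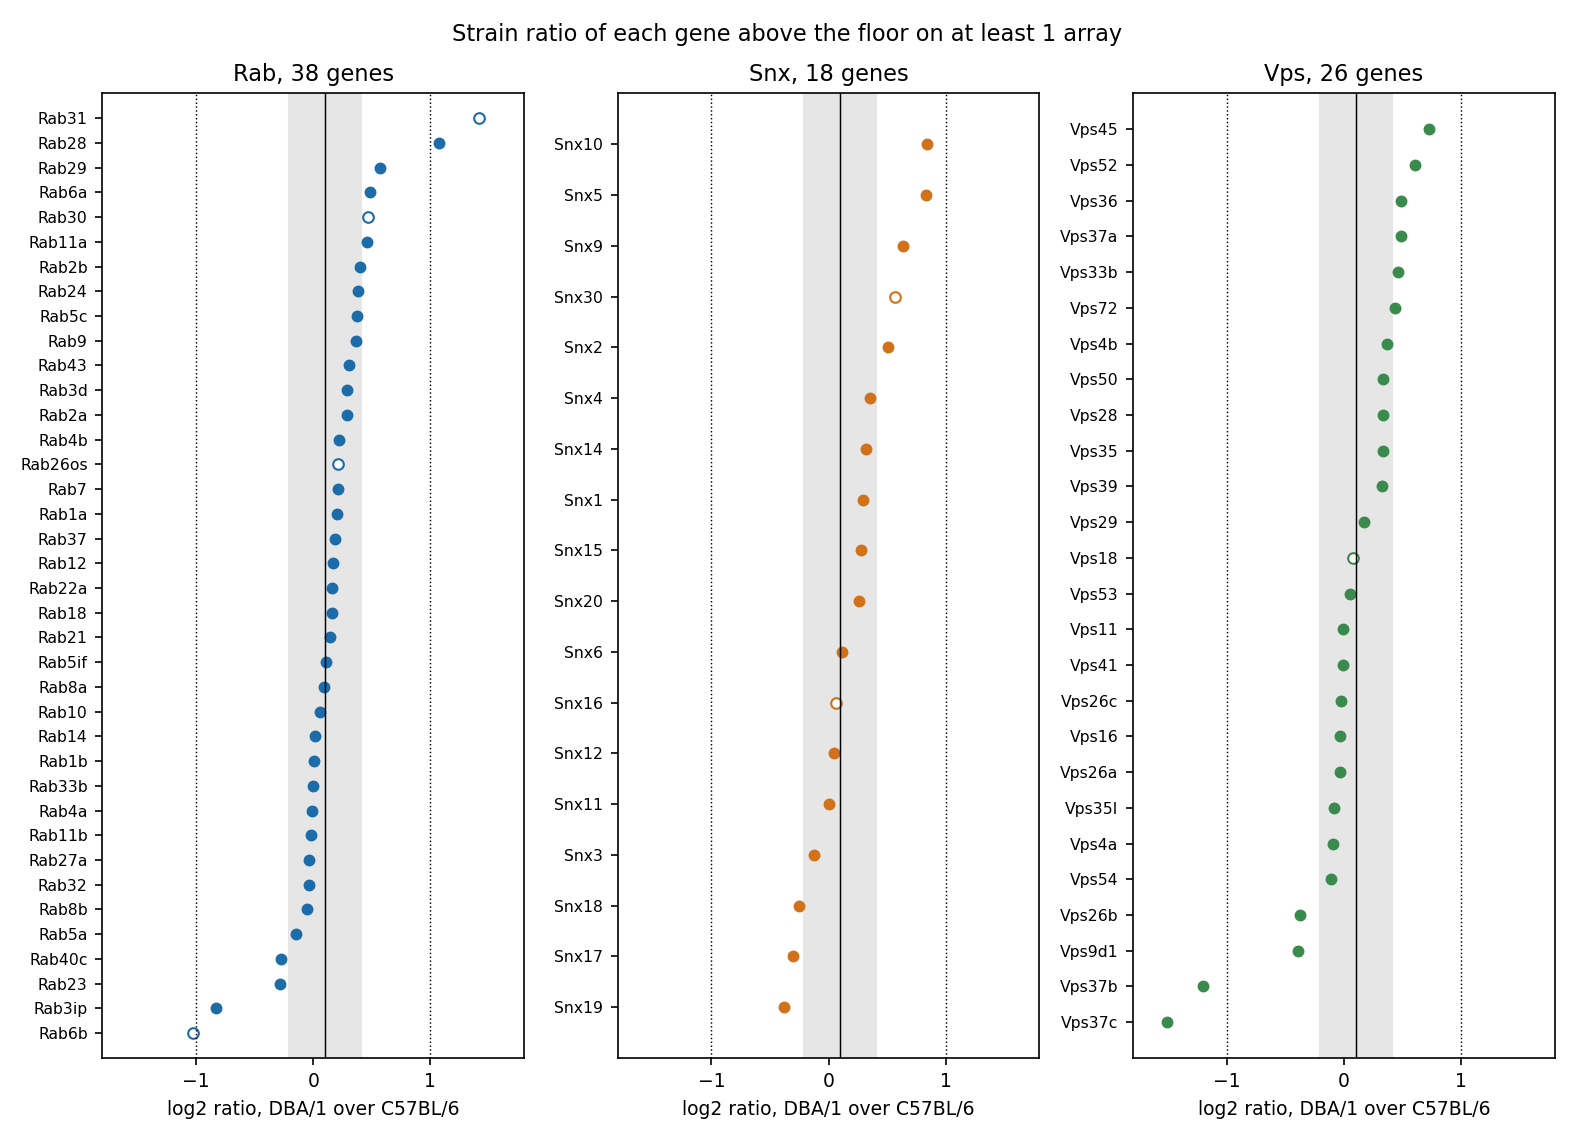
Log2 ratio of DBA/1 over C57BL/6 (x axis) for each gene above the floor on at least 1 array, in panels for 38 Rab, 18 Snx and 26 Vps genes, sorted by value. Open circles are bounds with 1 side at the floor, and the solid line is the all-gene median of 0.10. The grey band is that median plus and minus the SD per probe set of 0.31, and dotted lines mark 2-fold. Most genes lie inside the band, with Rab28, Rab31, Vps37b, Vps37c and Rab6b past 2-fold.

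Among Rab genes listed here under the late endosome and lysosome, all 6 above the floor were higher in DBA/1, against 60.6% of all genes. Their log2 ratios had a median of 0.37. All 6 also exceeded the all-gene median as deposited and after quantile normalization and lowess. Median centring shifts every gene alike, so it could not change that count. Rab28, a distant relative of the other Rab proteins that is known for its role at cilia, read 255 and 121, a log2 ratio of 1.07 (2.11-fold). Its second probe set read 74.6 and 41.7 (log2 ratio 0.84), so both probe sets were higher in DBA/1. After median centring the log2 ratio of Rab28 was 0.97, short of 2-fold. Rab29, which acts at the Golgi and lysosome with the kinase LRRK2, read 208 and 140.2 (log2 ratio 0.57). Rab24, linked to autophagy, read 282 and 217 (0.38), and Rab9, which returns mannose 6-phosphate receptors to the Golgi, read 228 and 177 (0.37). Rab7, the main Rab of late endosomes, was nearer to equality at 826 and 713 (0.21), as was Rab12 at 63.2 and 56.2 (0.17). Rab34 and Rab7b were under the floor on both arrays.

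The 250 bases before the RefSeq start site of Rab28, Snx5 and Vps37c are shown because Rab28 was the counted gene with 2 matching probe sets higher in DBA/1, and Snx5 and Vps37c are the genes whose probe sets differed most in ratio. They come from RefSeq's mouse reference, build GRCm38.p6, a C57BL/6J genome, at chr5:41708180-41708429 (minus strand), chr2:144270573-144270822 (minus strand) and chr19:10688485-10688734 (plus strand; the first of 2 start sites in the table). DBA/1 sequence was not used here. Capitals mark matches to the GC box GGGCGG, the E-box CACGTG, which is also the core of the element bound by the lysosomal regulator TFEB, and the CCAAT box, each on either strand.
Rab28: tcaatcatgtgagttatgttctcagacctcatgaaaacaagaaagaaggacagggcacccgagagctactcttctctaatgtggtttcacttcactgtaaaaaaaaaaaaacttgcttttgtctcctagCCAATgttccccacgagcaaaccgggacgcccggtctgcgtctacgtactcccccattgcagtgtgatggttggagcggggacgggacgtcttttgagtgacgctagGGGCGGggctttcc
Snx5: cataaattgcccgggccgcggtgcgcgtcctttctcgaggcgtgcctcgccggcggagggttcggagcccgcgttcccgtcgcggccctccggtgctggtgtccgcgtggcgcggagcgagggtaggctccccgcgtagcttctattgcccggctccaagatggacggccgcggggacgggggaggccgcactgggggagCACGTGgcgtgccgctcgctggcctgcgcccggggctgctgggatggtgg
Vps37c: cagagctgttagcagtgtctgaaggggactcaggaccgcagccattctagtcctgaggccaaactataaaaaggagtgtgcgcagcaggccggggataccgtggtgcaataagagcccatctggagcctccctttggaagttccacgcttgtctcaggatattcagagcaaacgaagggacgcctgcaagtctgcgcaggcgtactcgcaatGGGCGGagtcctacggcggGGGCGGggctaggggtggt

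Rab28 has 1 GC box and 1 CCAAT box in this window, Vps37c has 2 GC boxes, and Snx5 has 1 CACGTG and no GC box or CCAAT box. Over the 81 of 105 genes with a window in the table, the median GC content was 62.0%, against 58.4% over 9887 measured genes. A GC box was present in 69.1% of the 81 windows, against 53.2% of all windows. By name group the share was 70.8% of 48 Rab, 81.25% of 16 Snx and 52.9% of 17 Vps windows, so Vps lay at the all-gene share. CACGTG was present in 10 of the 81 (12.3%), among them those of Rab5a, Rab21, Snx18, Vps16 and Vps26a, against 7.74% of all windows. A CCAAT box was present in 38.3% and 35.8%, with 45.8% for Rab, 37.5% for Snx and 17.6% for Vps. These are matches of letters in 1 window per gene, and the arrays did not measure promoter activity.

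Early endosomal Rab genes differed little, apart from Rab31. The median of the 5 above the floor was 0.16, with 4 higher in DBA/1. Rab5a, which drives fusion of early endosomes, read 432 and 479 (log2 ratio -0.15), and its paralogue Rab5c read 183 and 141 (0.38). The pair thus pointed in opposite directions, with a gap of 0.53, close to the SD between 2 probe sets of 1 gene, which was 0.43 over all genes and 0.54 over the trafficking genes. Rab21, which traffics integrins, read 458 and 416 (0.14). Rab22a, a Rab of early and recycling endosomes, read 101 and 90.5 (0.16), while its other probe set above the floor lay at -0.47. Rab5b, Rab17 and Rab20 were under the floor on both arrays.

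Rab31, a Rab of the Golgi-to-endosome route that is also expressed in macrophages, read 101 in DBA/1 and 35.4, under the floor, in C57BL/6. It was at least 2.67-fold higher in DBA/1, but did not reach the minimum signal, and its second probe set was under the floor on both arrays (29.0 and 13.2). The log2 ratio was 1.41 as a bound, 0.99 with log2(signal + 32), 0.70 with the mean over probe sets and 0.49 with the floor at percentile 60, so the 2-fold difference depended on the treatment of low signals. Markers of several other spleen cells were higher in DBA/1 in the same preparations. All 12 neutrophil markers above the floor, of 13 measured, were higher, with a summed signal of 34477 against 10696 and Cxcr2 under the floor on both arrays. Of 15 monocyte and macrophage markers 14 were higher, with sums of 10588 and 6199, and of 9 B cell markers 8, with sums of 1765 and 971 and with Pax5 and Ebf1 under the floor on both arrays. The B cell marker that went the other way, Cd72, had the largest ratio of that list, at 45.0 and 146 (-1.70). All 6 dendritic cell markers above the floor, of 7, were higher (4743 and 1834), and all 6 CD8 T cell markers were lower (405 and 1043). The neutrophil granule gene Lcn2 read 3016 and 462, and the macrophage-expressed Hmox1 220.0 and 64.5. Median log2 ratios were -1.48 over 2 of 5 NK cell markers above the floor, 0.64 over 4 of 5 plasma cell markers, 0.18 over 5 of 7 erythroid and 0.40 over 2 of 5 platelet markers. The 7 CD4 T cell markers were all above the floor, with sums of 10056 and 10342 and a median log2 ratio of -0.044. The part of other cells in the ratio of Rab31, or of any other gene here, was not tested, and in these bulk samples more cells of a type and more RNA per cell cannot be told apart.

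Recycling Rab genes had nearly equal signals. Their median log2 ratio was 0.011 over 5 genes, and it was below 0 under each of the 3 scalings (-0.092 after median centring). Rab14, a Rab between endosomes and Golgi, read 896 and 889, and its 5 probe sets above the floor ran from -0.34 to 0.22. Rab11b read 297 and 300.4 (-0.018) and Rab4a 64.2 and 64.9 (-0.014). Of the paralogues, Rab11a, the central Rab of slow recycling, was higher in DBA/1 at 588 and 428 (0.46), although its second probe set lay at 0.022. Rab4b, of the fast recycling route, read 418 and 358 (0.22). The epithelial Rab25 and Rab15 were under the floor on both arrays.

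Rab genes of the endoplasmic reticulum and Golgi were slightly higher in DBA/1, with a median of 0.24 and 8 of 10 genes above 0. After median centring the median was 0.14 and 7 of 10 were above 0. Rab1a, needed for transport from the endoplasmic reticulum to the Golgi, read 1271 and 1102 (0.21), with a second probe set at -0.032, and Rab1b read 251 on both arrays. Rab2a read 734 and 603 (0.28), with 3 usable probe sets between 0.044 and 0.33, and Rab2b read 72.9 and 55.3 (0.40), with a second at -0.083. Both paralogues of this Golgi-to-reticulum Rab therefore lay on the same side in the probe set used. Rab6a, of retrograde Golgi transport, read 439.6 and 314 (0.49), but its other probe set read 260.3 and 304.5 (-0.23). Rab18, found on lipid droplets, read 418 and 373 (0.16), with a second at -0.51. Rab43 read 252 and 205 (0.30), and Rab33b, a Golgi Rab that binds Atg16l1, read 243 and 244. Rab30 read 52.6 and 26.6, the second under the floor, so DBA/1 was at least 1.38-fold higher.

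Rab6b, the brain-enriched isoform of Rab6, read 0.590 in DBA/1 and 76.5 in C57BL/6. The DBA/1 signal was far under the floor, so the gene was at least 2.04-fold lower there. It has 1 probe set, did not reach the minimum signal, and came to a log2 ratio of -0.049 with the floor at percentile 60. Rab33a was under the floor on both arrays.

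Rab genes of exocytosis and granules differed little. The 7 above the floor had a median of 0.060, which was between -0.057 and -0.042 under the 3 scalings, and lay between -0.050 for Rab8b and 0.29 for Rab3d. Rab8a and Rab8b, which direct carriers to the plasma membrane, read 537 and 504 and 912 and 945. Rab10, of the same branch, read 441 and 423 (0.060), with other probe sets at 0.096 and -0.17. Rab37, of secretory granules, read 198 and 174 (0.18). All 4 were thus within 1.14-fold in the probe set used. Rab27a, which docks cytotoxic granules, was near the floor at 45.4 and 46.5 (-0.035), with another probe set at 0.12. Of the cytotoxic cell markers, Nkg7 read 53.2 and 202, and Cd8b1 16.1, under the floor, and 199. Cd8a differed less, at 52.9 and 78.0 (-0.56). Rab32, of lysosome-related organelles, read 68.1 and 69.9 (-0.037), and Rab3d, of secretory granules, 53.9 and 44.1 (0.29). Other Rab3d probe sets lay on the C57BL/6 side, at -0.081 and, with DBA/1 under the floor, at -0.16. Rab3a, Rab3b, Rab3c, Rab13, Rab27b and Rab38, mostly genes of neurons, epithelia, platelets or pigment cells, were under the floor on both arrays.

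Among genes that carry the Rab name without being Rab GTPases, Rab3ip was the one that stood out. Rab3ip (Rabin8), the exchange factor that activates Rab8, read 120.5 in DBA/1 and 214 in C57BL/6, a log2 ratio of -0.83 (1.77-fold lower), on 1 probe set. Over the settings tried it ran from -0.93 to -0.69. Its substrates Rab8a and Rab8b lay at 0.092 and -0.050. Rab5if, a small membrane protein, read 663 and 614 (0.11), and the antisense RNA Rab26os read 44.1 and, under the floor, 30.8. Rab11fip5, Rab3gap2 and Rab3il1 were under the floor on both arrays. Of the remaining Rab GTPases, Rab23, known from hedgehog signalling, read 45.6 and 55.5 (-0.28), Rab40c, of the SOCS-box Rab40 group, read 129.9 and 158 (-0.28), and Rab40b was under the floor.

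Sorting nexins with a BAR domain were mostly higher in DBA/1. With Snx5 at its strongest probe set, 7 of 8 were higher and the median of their log2 ratios was 0.43. Without Snx5, whose probe sets disagree, 6 of 7 were higher and the median was 0.35, and with Snx5 at the mean of its probe sets 6 of 8 were higher and the median was 0.32. Snx1, Snx2, Snx5 and Snx6 pair into the dimers that form retrograde tubules. Snx1 read 252 and 205 (0.30), Snx6 200.2 and 185 (0.11), and Snx2 1009 and 709 (0.51). In the probe set used, these 3 were higher in DBA/1 by at most 1.42-fold. Another Snx6 probe set went the other way, at 0.822, under the floor, and 50.8, or at least 1.35-fold lower in DBA/1. Snx4, of recycling and autophagy, read 439 and 344 (0.35). Snx9, which works with dynamin in endocytosis, read 128 and 82.2 (0.63), and its second probe set also was higher in DBA/1 (0.40). Snx18, a relative of Snx9, went the other way at 144 and 172 (-0.26), with a second at 0.11. Snx30 read 56.5 and 37.1, the second just under the floor, so DBA/1 was at least 1.49-fold higher.

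Snx5 gave opposite answers on its probe sets. The probe set with the highest signal (1448791_at) read 1749 in DBA/1 and 984 in C57BL/6, a log2 ratio of 0.83. A second (1417647_at) read 402 and 397 (0.018). The other 3 were lower in DBA/1: 1417646_a_at read 275 and 570.4 (-1.05), 1417648_s_at read 129 and 259 (-1.005), and 1437074_at read 73.0 and 184 (-1.33). All 5 were above the floor on both arrays, and the gene's mean over them was -0.51, so the direction for Snx5 depends on the probe set chosen. No direction is therefore given for Snx5.

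Of the other sorting nexins, Snx10 differed most. Snx10, known for its part in osteoclasts and endosomal acidification, read 215 and 120.0, a log2 ratio of 0.84 (1.79-fold higher in DBA/1), on 1 probe set, and ran from 0.70 to 0.84 over the settings. Monocyte and macrophage markers were higher in the same preparation (median 0.81), and their part in it was not tested. The other PX-only members were nearer to equality, and the median of the 6 with Snx10 was 0.057, -0.045 after median centring, 0.063 after quantile normalization and 0.072 after lowess: Snx3, which works with retromer in Wntless sorting, read 737 and 801 (-0.12), Snx12 read 147 and 142 (0.051), and Snx20, which binds the selectin ligand PSGL-1, read 225 and 188 (0.26). Snx11 and Snx16 were close to the floor at 43.7 and 43.4 and at 39.8 and 35.9. Snx17, the FERM-domain nexin that recycles integrins, read 1022 and 1263 (-0.31). Snx19 and Snx14, of the RGS-PX class, read 109.7 and 143 (-0.38, second probe set -0.21) and 223 and 179 (0.32). Snx17 and Snx19 were thus on the C57BL/6 side, and no Snx gene reached 2-fold in the probe set used. Snx15 read 94.5 and 77.9 (0.28), and Snx21, Snx22 and Snx29 were under the floor on both arrays.

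Retromer and retriever subunits were close to equal between strains. The 6 had a median of -0.028, and 2 were above the all-gene median. Vps35, the scaffold of retromer, read 848 and 674 (0.33), with a second probe set at 0.22, and Vps29 read 692 and 614 (0.17), with a second at 0.48. Vps26a, the third subunit, read 177 and 181 (-0.034). Its paralogue Vps26b was lower in DBA/1 on both probe sets, at 153 and 199 (-0.37) and at a log2 ratio of -0.49. The retriever subunits Vps35l and Vps26c read 162 and 172 (-0.086) and 237 and 241 (-0.022).

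The list of HOPS and CORVET tethering genes, which here includes Vps33b, had a median of 0.039 over 6 genes. The median was -0.064 after median centring, 0.014 after quantile normalization and 0.012 after lowess. Vps33b had the highest ratio of the 6, and the median without it was not computed. The core subunits Vps11, Vps16 and Vps18 read 143 on both arrays, 288 and 295, and 40.3 and, under the floor, 27.4. Vps41 of HOPS read 402 and 404, and its partner Vps39 read 142 and 113 (0.33). Vps33b, which works with Vipas39, read 110.5 and 80.3 (0.46), and Vps45, a related SNARE regulator, read 81.0 and 49.0 (0.72, 1.65-fold), under the minimum signal. Of the GARP and EARP genes, Vps52 read 92.7 and 60.8 (0.61), Vps50 136 and 108 (0.34), Vps53 137 and 132 (0.055, with another probe set at 0.56) and Vps54 377 and 407 (-0.11, with another at -0.081). Vps54 was thus the only 1 of the 4 on the C57BL/6 side. The 4 had a median of 0.20.

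ESCRT genes held the 2 largest Vps differences toward C57BL/6, Vps37c and Vps37b, and had a median of 0.33 over 7 genes, 4 of them higher in DBA/1. Both values take Vps37a at its strongest probe set (0.49). With the mean over its probe sets Vps37a came to -0.043, so the count and the median depend on that choice. Vps28, the ESCRT-I subunit, read 1206 and 958 (0.33), and Vps36 of ESCRT-II read 188 and 134 (0.49). The ATPase that disassembles ESCRT-III is encoded by Vps4a and Vps4b, which read 219 and 234 (-0.096) and 1158 and 896 (0.37), a gap of 0.47. These genes stayed within 1.40-fold of equality. The 3 paralogues of the Vps37 subunit, of which 1 is built into each ESCRT-I complex, spread further.

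Vps37b read 91.4 in DBA/1 and 211 in C57BL/6, a log2 ratio of -1.20 (2.30-fold lower in DBA/1), on its single probe set. Over the settings it ran from -1.31 to -0.97 and so kept its direction. With 1 probe set above both floors, only the scalings could have reversed it. Vps37c read 46.2 and 131, a log2 ratio of -1.51 (2.85-fold lower), under the minimum signal, but its second probe set read 59.2 and 41.2 (0.52). Vps37a read 73.4 and 52.3 (0.49), and its second probe set 46.1 and 68.8 (-0.58). Among the 3 paralogues, Vps37b is therefore the only 1 without probe sets that disagree, and it has 1. Vps25 and Vps13c were under the floor on both arrays. Vps9d1, with a domain of Rab5 exchange factors, read 57 and 74.9 (-0.39). Vps72, a histone chaperone of chromatin remodelling that shares only the name, read 153 and 113 (0.44).

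Repeat probe sets show how far single probe sets of a gene differ on these RNAs, not the spread between animals. Probe sequences were not at hand, so the part of strain variants or of different transcripts in such differences was not tested. For 31 of the 105 genes at least 2 probe sets were above the floor on both arrays. All of these probe sets pointed the same way in 16 of the 31, and Snx5, Vps37c and Vps37a had probe sets more than 1 log2 unit apart. Probe sets with a side under the floor, such as that of Snx6, did not enter this count. The SD between the 2 strongest probe sets of a gene was 0.54 over these genes, against 0.43 over all genes, and the median absolute gap was 0.23 against 0.22. Rab28, Snx9, Snx19, Vps26b, Vps35, Rab24 and Rab7 had all usable probe sets on 1 side. The plot of ratios by probe set shows both kinds.

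**Figure D3:**
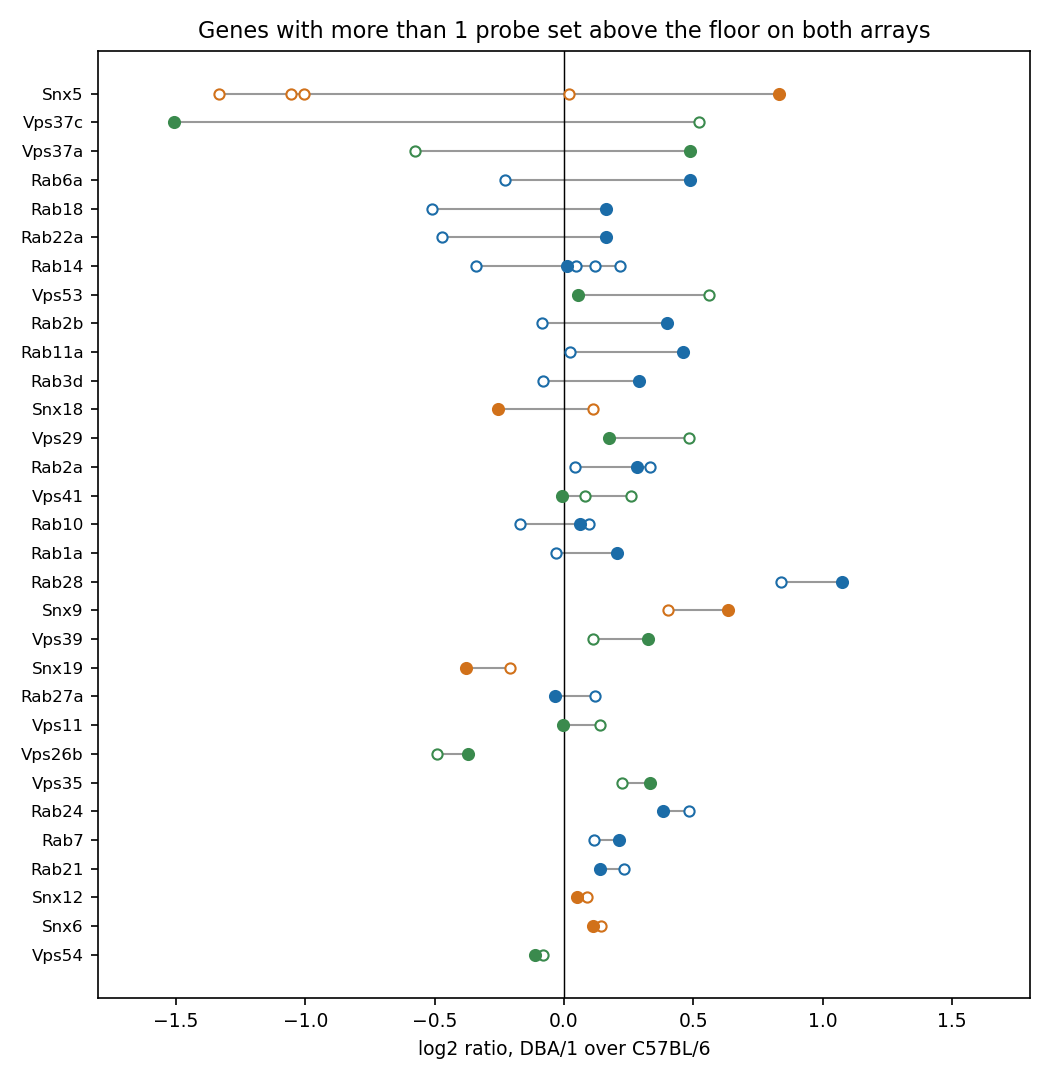
Log2 ratio of DBA/1 over C57BL/6 (x axis) for every probe set above the floor on both arrays, for the 31 genes with more than 1, sorted by range. Filled circles are the probe set used for the gene, open circles the others; blue is Rab, orange Snx and green Vps. Snx5 spans from -1.33 to 0.83 and Vps37c from -1.51 to 0.52, while both probe sets of Rab28 lie above 0.8.

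Paralogues named by the same number could be compared in 9 families with at least 2 genes above the floor on both arrays. Their ratios lay a median of 0.35 apart. In Vps37 the gap was 2.0, between paralogues whose own probe sets disagree. In Rab5, Rab11 and Vps4 it was 0.53, 0.48 and 0.47, above the SD of 0.43 between probe sets over all genes and below that of 0.54 over the trafficking genes. Rab1, Rab2, Rab4, Rab8 and Vps26 had gaps of 0.35 or less.

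Genes that regulate or use these proteins, from lists of 200 genes of which 145 were measured and 133 above the floor, had a median log2 ratio of 0.18, with 92 higher in DBA/1 and 41 lower. That is 69.2% higher, against 60.6% of all genes. Of the 133, 4 were at least 2-fold higher, against the 3.84% given above for all genes, and 2 at least 2-fold lower, against 1.9%. Rab prenylation and GDP dissociation genes had a median of 0.30, with 5 of 6 higher: Rabggtb, the beta subunit of the enzyme that attaches lipid to Rab proteins, read 519 and 291 (0.83), Gdi2, which extracts Rab proteins from membranes, 2704 and 1918 (0.50), and Rabac1 1123 and 905 (0.31). Rab exchange factors had a median of -0.0041 over 11 genes, led by Dennd4c (-0.66), Sbf2 (-0.59) and Dennd1a (0.58). GTPase-activating proteins had a median of 0.14 over 15, with Tbc1d23 at 1.02, Tbc1d22a at 0.77 and Evi5 at 0.76. Effectors and tethers had a median of 0.16 over 21, with Sytl2, a Rab27 effector, at 68.2 and 141 (-1.05), Ehd4 at 0.74 and Mical1 at 0.73. The Rab27a signal itself, as given above, was nearly equal.

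The lists of WASH, COMMD and retromer partners, of SNAREs and of cargo receptors leaned further to DBA/1. On these arrays 60.6% of all genes were higher there. Over the all-gene median lay 9 of 14, 15 of 21 and 8 of 9 of their genes. Under the 3 scalings their medians ran from 0.21 to 0.23, from 0.17 to 0.22 and from 0.28 to 0.31. The WASH and COMMD list, which also holds Ccdc22, Ccdc93 and Vipas39, had a median of 0.32, with 11 of 14 higher. Washc2, of the actin-nucleating WASH complex, read 765 and 501 (0.61), Commd5 lay at 0.76 and Commd7 at -0.61. The other WASH genes, Washc1, Washc3 and Washc4, lay at 0.0054, 0.095 and 0.31, the first and second under the all-gene median. Endosomal SNAREs had a median of 0.32, with 17 of 21 higher, Stx8 at 240.2 and 149 (0.69), Vti1a at 0.64, and Vamp2 at least 2.46-fold lower. The cargo receptor list, in which Lamp1 and Lamp2 were also placed, had a median of 0.39, with 8 of 9 higher. The lysosomal membrane protein Lamp2 read 722 and 314 (1.20), and the sorting receptor Sorl1 708 and 453 (0.64). Igf2r, the large mannose 6-phosphate receptor, read 147 and 214 (-0.54). Monocyte, macrophage, neutrophil and dendritic cell markers were also higher in DBA/1, as given above; their part in these lists was not tested. ESCRT genes without the Vps name had a median of 0.072, which was between -0.078 and -0.030 under the 3 scalings, with Mvb12b, of ESCRT-I, at -0.57, Chmp1a at 0.36 and Snf8 at 0.33. Phosphoinositide enzymes of endosomes had a median of 0.11 and went both ways, with Vac14 at 1.25 and Atg14 at 1.10 against Pik3r4 (yeast Vps15) at -0.80. Of the genes past 2-fold in these lists, Vac14, Atg14, Tbc1d23, Sytl2 and Vamp2 were under the minimum signal. Vamp2 read 33.2, under the floor, and 92.4.

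**Figure D4:**
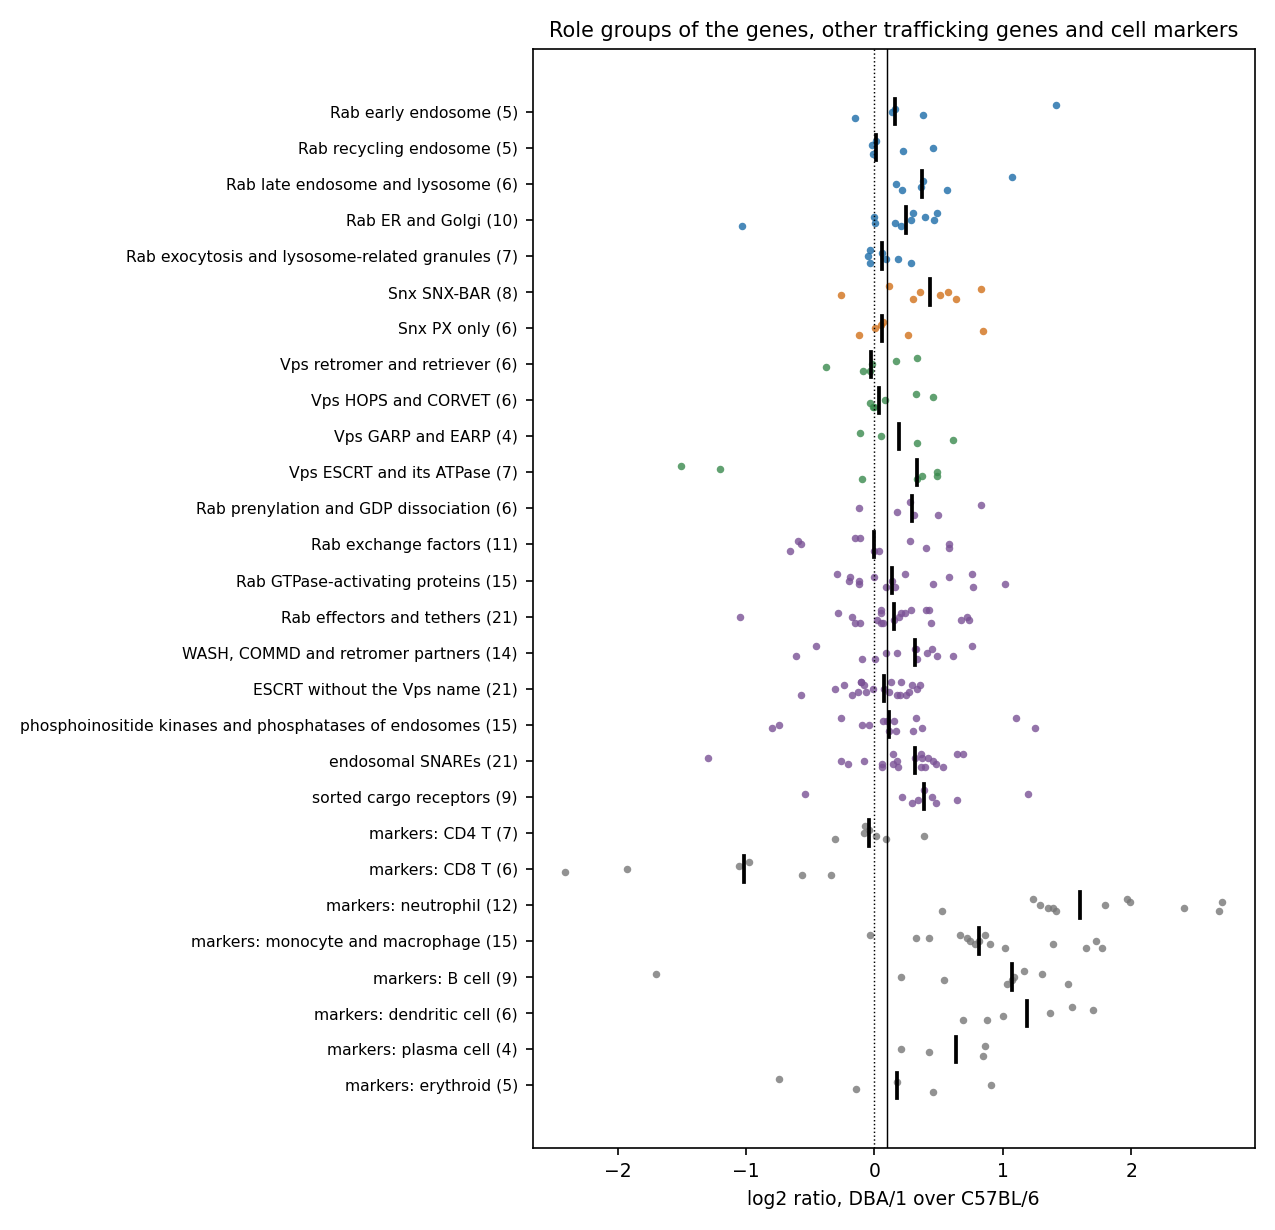
Log2 ratio of DBA/1 over C57BL/6 (x axis) for each gene above the floor on at least 1 array, by role group (blue Rab, orange Snx, green Vps), by list of other trafficking genes (purple) and by marker list of cell types (grey), for lists with more than 2 such genes, whose number is in parentheses. Black bars are medians, the solid line is the all-gene median of 0.10 and the dotted line is 0. The trafficking medians lie between -0.028 and 0.43 (the BAR-domain nexins, with Snx5 at its strongest probe set), while the neutrophil markers have a median of 1.60 and the CD8 T cell markers one of -1.01.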

How the data were processed

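The authors deposited 1 probe set intensity per array on a linear scale; MAS5, which combines perfect-match and mismatch probes, is named in the submitters' processing notes, and its version and scaling target were not stated. Per the labels' protocols, 3 µg of total RNA was labelled with biotin after oligo(dT) priming, which samples 3' ends. MAS5 signals are unstable near background, hence the floor. The trimmed mean signals (2% off each end) were 146 and 136, so the arrays had not been brought to 1 common level.

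Values were used as deposited. Of 22690 probe sets, 64 were controls; 20380 others had 1 symbol, 691 several and 1555 none. Each gene was represented by the probe set whose log2 signal averaged highest over both arrays. Log2 ratios, medians and counts were computed in Python 3.11.15 (numpy 2.4.6, pandas 2.3.3, statsmodels 0.14.6) and tested on simulated data. Named genes were those past 2-fold at the minimum signal, the 6 largest ratios per direction and the 8 highest signals in each name group. Added to them were genes with probe sets over 1 log2 unit apart and the 3 largest ratios of each pathway list. Of the 2 largest ratios of each marker list, some are named. Other values were added for completeness after they were seen. The members and lists were chosen with earlier results of these data known. Alternatives were 3 scalings, 4 treatments of low signals, 2 probe set rules and minimum signals at percentiles 50 and 90. There were no replicates to compare.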

Additional observations from a re-analysis of the deposited data

Results flagged for a closer look

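A pair of probe sets assigned to both Ramp2 and Vps25 fell outside the rule of 1 symbol and entered no comparison, but carried signal above the floor on both arrays. 1421051_s_at read 211 in DBA/1 and 209.8 in C57BL/6, and 1428621_a_at read 292 and 326. The probe set assigned to Vps25 alone was under the floor at 15.5 and 8.32, so which of both genes gave the signal cannot be told apart here.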

How the results depend on the processing

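Scaling moved the medians of the name groups. Vps37b kept its direction in all settings, though with 1 probe set above both floors only the scalings could have reversed it. The Rab median (0.17 as deposited) was 0.064 after median centring, 0.071 after quantile normalization, 0.050 after lowess and 0.085 with the mean over probe sets. The Snx median (0.27) was 0.17, 0.19, 0.18 and 0.12 in the same settings. The Vps median (0.069) came to -0.034 with median centring, to -0.0078 with lowess and to 0.33 without probe sets ending in _s, _x or _a, which may detect other transcripts, leaving 19 genes; it was then above the Snx (0.27) and Rab (0.14) medians. With Snx5 left out or at its mean over probe sets, alternatives chosen after seeing the data, the Snx median was 0.26 and 0.19. The median over the pathway genes (0.18) was 0.074, 0.094 and 0.073 under the 3 scalings, 0.14 with log2(signal + 32), 0.12 with the mean over probe sets and 0.10 without the suffixed probe sets. The median over markers of cells other than CD4 T cells (0.86) was 0.76, 0.79 and 0.76 under the scalings, 0.75 with log2(signal + 32) and 0.78 with the mean over probe sets. The count of Rab genes at least 2-fold higher (1) was 0 under the 3 scalings, log2(signal + 32), the mean over probe sets and a minimum at percentile 90, and 2 with the minimum at percentile 50, where 1 Rab gene was also at least 2-fold lower. The count of Vps genes at least 2-fold lower (1) was 0 with log2(signal + 32) and with a minimum at percentile 90, and 2 at percentile 50. A smaller or larger number of genes at the minimum signal accounts for the changes with percentile; for the others the cause was not tested. Of the 14 named genes with a ratio of 0.5 or more in size, Snx5 changed sign (to -0.51, with the mean over probe sets). Of 50 named genes, 11 moved by 0.31 or more in at least 1 setting, and 6 changed sign. Besides Snx5 these were Rab14, Rab5if, Rab8a, Vps37a and Vps41. No paired analysis was possible because each strain has 1 array.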
